A study of Rattus norvegicus with 2 samples.

Results

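Among the endothelial cells (ECs) of rat carotid arteries, those with transcripts of Plvap or Emcn were described here, 13 control and 111 case cells, or 124 of 8977 cell barcodes in all. Plvap codes for the protein of the diaphragms that span the pores and caveolae of capillary and venous ECs, and Emcn codes for endomucin, a sialomucin on the surface of the same vessels. The lining of a large artery normally carries little of either, while the small vessels in the outer wall of an artery (the vasa vasorum) carry both. Fabp4, a fatty acid chaperone, is a further gene of capillary ECs, and Gja5 (connexin 40) and Hey2 mark arterial ECs.

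Both libraries came from SD rats labelled as 12 weeks old. The control library held the uninjured left carotid arteries and the case library the right carotid arteries 28 days after balloon injury, a procedure in which an inflated balloon strips the lining of the vessel. Arteries of 2 male rats were pooled in each library, and the left and right arteries came from the same animals. With 1 library per group there was no replicate, so no test between the groups was possible and intervals below cover counting error only.

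A barcode was kept when it held at least 1000 UMIs (unique molecular identifiers, each counting 1 captured transcript) and mitochondrial genes took at most 20% of them. This kept 2244 of 3321 control and 4947 of 5656 case barcodes. It entered the endothelial gate when Cdh5, Cldn5, Sox17, Vwf, Emcn, Plvap and Kdr summed to at least 4 UMIs from 2 or more of these 7 genes, 6 smooth muscle genes (Acta2, Tagln, Myl9, Myh11, Cnn1 and Cald1) held under 1% of UMIs and 4 fibroblast genes (Col1a1, Col3a1, Dcn and Lum) held under 1.5%. The gate held 55 control and 217 case cells. The cells described here had at least 1 UMI of Plvap or Emcn in addition, and the other 42 control and 106 case cells of the gate, with neither transcript, are called Plvap/Emcn-negative ECs below. Because measured values of these 7 genes chose the cells, the levels of those genes are given as a description. Which barcodes belonged to which group was read from the number of barcodes that the study states for each library.

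The 13 control cells held 102463 UMIs, with a median of 8197 and a range of 2733 to 15183 per cell. The 111 case cells held 502482 UMIs, with a median of 4158 and a range of 1160 to 18002. A single UMI was therefore worth 9.76 per 1000000 UMIs (counts per 1000000, CPM) in the control cells and 1.99 CPM in the case cells, and a count of 0 allowed up to 29.3 and 5.97 CPM at a limit of 3 UMIs. Of the barcode sequences, 21 occurred in both libraries, and 0 of these belonged to the cells described here.

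The data went against the endothelial label in 2 of the 124 cells. Of 25 further endothelial genes that the rule did not use (Egfl7, Clec14a, Cd93, Icam2 and others), the control cells held a median of 41 UMIs from a median of 12 genes and the case cells a median of 15 UMIs from a median of 9 genes. The exception in the control group was a barcode of 15183 UMIs with 3 Plvap UMIs and 12 Kdr UMIs, but with 0 Cdh5 and 0 of the 25 further genes. It carried 1188 UMIs of MHC class II genes, which present antigen in dendritic cells and macrophages, among them 354 of Cd74 and 383 of RT1-Da, and all 31 Il12b UMIs of the control cells. A case barcode of 6929 UMIs had the same make-up, with 3 Plvap, 12 Kdr and 0 Cdh5 UMIs, 1 UMI of the 25 further genes and 657 of MHC class II genes. The summed MHC class II level of 11594 CPM in control and 1315 CPM in case cells rested on these 2 barcodes, since without them the other cells held 0 and 4 MHC class II UMIs. Results are given with them, as the rule has it, and without them where they decide a value.

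Other cell types left few traces. The lists of T cell, Schwann cell, adipocyte, erythrocyte and mesothelial genes held at most 6 UMIs each in the control cells and at most 12 in the case cells, and the 8 pericyte genes held 17 and 39. The 9 macrophage genes (Cd68, Lyz2, C1qa and others) summed to 254 CPM in control and 25.9 CPM in case cells, with 24 of 26 and 11 of 13 UMIs in the 2 MHC class II barcodes. The 6 smooth muscle genes of the rule summed to 1542 and 1586 CPM and the 4 fibroblast genes to 371 and 472 CPM, of which the rule itself set the upper limit. Scrublet, which scores barcodes for likeness to simulated mixtures of 2 cells, called 0 of the 124 cells. It called 16 of 2244 control and 2 of 4947 case barcodes in all, too few to serve as a check on doublets.

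Cells with Plvap or Emcn made up 0.579% of kept control barcodes (95% Clopper-Pearson interval 0.309 to 0.989, 13 of 2244) and 2.24% of kept case barcodes (1.85 to 2.70, 111 of 4947). Within the endothelial gate they took 23.6% (13.2 to 37.0) of control and 51.2% (44.3 to 58.0) of case cells. Detection of a transcript depends on depth, and the control cells of the gate were deeper, with a median of 7802 against 4312 UMIs. When each cell was thinned to 1000 UMIs, 12.7% (5.27 to 24.5, 7 of 55) of control and 33.6% (27.4 to 40.3, 73 of 217) of case ECs still showed either transcript. Plvap and Emcn choose these cells and also count toward the gate, so the shares of the 1 library per group are a description, with intervals that cover counting error only. The smooth muscle, fibroblast and macrophage gates admitted only cells with under 2 UMIs of the 7 genes of the rule. Cells with 2 or more Plvap or Emcn UMIs could thus not enter them, so the counts below are low in part by construction. Of barcodes that met the endothelial genes and Plvap or Emcn, 3 control and 8 case barcodes were over the smooth muscle limit. Over the fibroblast limit were 1 and 5. Plvap or Emcn was found in 1 of 1054 control and 4 of 2414 case cells of the smooth muscle gate, in 0 of 716 and 0 of 1243 cells of the fibroblast gate, and in 0 of 47 and 1 of 117 cells of the macrophage gate.

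**Figure D1:**
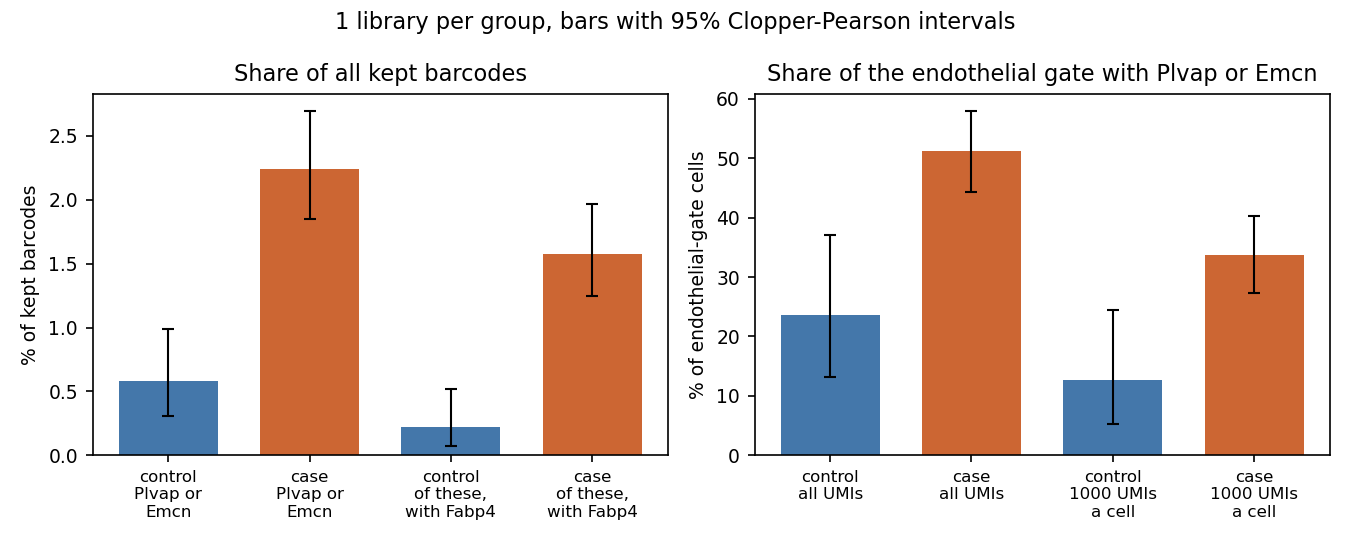
Share of kept barcodes (left, in %) that were ECs with Plvap or Emcn, and that also had Fabp4, and share of endothelial-gate cells (right, in %) with Plvap or Emcn before and after thinning to 1000 UMIs a cell. Bars are the share in the 1 library of each group and error bars 95% Clopper-Pearson intervals, and the case bar is higher in each pair, as in 2.24% against 0.579% of kept barcodes.

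Few cells lay near the endothelial limit and more near the limit on Plvap and Emcn. At the endothelial limit, 0 control and 6 case cells had exactly 4 UMIs, and 0 and 8 further barcodes just missed it with 3. By contrast, 5 of 13 control and 17 of 111 case cells entered with a single UMI of Plvap or Emcn. Counts of 5 or more were reached by 5 control and 43 case cells. The smooth muscle and fibroblast limits kept out 3 control and 13 case barcodes that met the rest, with smooth muscle shares from 1.31% and 1.09% upwards just outside, against at most 0.355% and 0.926% inside. A further 0 control and 1 case barcode met all but the limits on UMIs and mitochondrial share.

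Both transcripts together were the common state in the case group and not in the control group. Plvap alone was found in 8, Emcn alone in 1 and both in 4 of the 13 control cells, against 31, 14 and 66 of the 111 case cells. Plvap amounted to 654 CPM in control and 732 CPM in case cells and Emcn to 195 and 322 CPM. Among the other genes of the rule, Cdh5, the cadherin of endothelial junctions, was at 742 and 1093 CPM and was found in 11 of 13 and 98 of 111 cells. Cldn5, a tight junction protein, was at 595 and 63.7 CPM, and 53 of its 61 control UMIs came from 1 cell.

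The 13 control cells fell into distinct kinds when read one by one. In 5 cells Plvap and Emcn summed to 22, 20, 13, 12 and 8 UMIs and Fabp4 to 44, 15, 12, 7 and 12, with Hmox1, the haem-degrading enzyme haem oxygenase 1, at 38, 35, 27, 26 and 8 UMIs. These were the Fabp4-positive control cells, and 15 arterial genes (Gja5, Hey2, Cytl1, Eln and others) summed to 4, 0, 1, 3 and 3 UMIs in them. Clu (clusterin), a secreted chaperone made by many cell types, was a further gene of the arterial list and held 81.9% of the list's UMIs in control and 78.8% in case cells, so it is given apart. Clu stood at 8 to 16 UMIs in the Fabp4-positive control cells. In 5 other cells a single Plvap UMI stood beside 29, 40, 22, 41 and 12 UMIs of the 15 arterial genes, 69 to 166 UMIs of Clu, 4 to 24 UMIs of Vwf and 0 of Fabp4. These cells held 1 to 27 UMIs of Eln (tropoelastin) each, against 0 to 2 in the Fabp4-positive ones. Of the remaining 3, one had 2 Plvap, 11 Vwf, 50 Clu and 11 other arterial UMIs, one had 2 Emcn, 53 Cldn5, 18 Sox17 and 71 Hmox1 UMIs, and the last was the MHC class II barcode. Fabp4 was 0 in all 3.

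**Figure D2:**
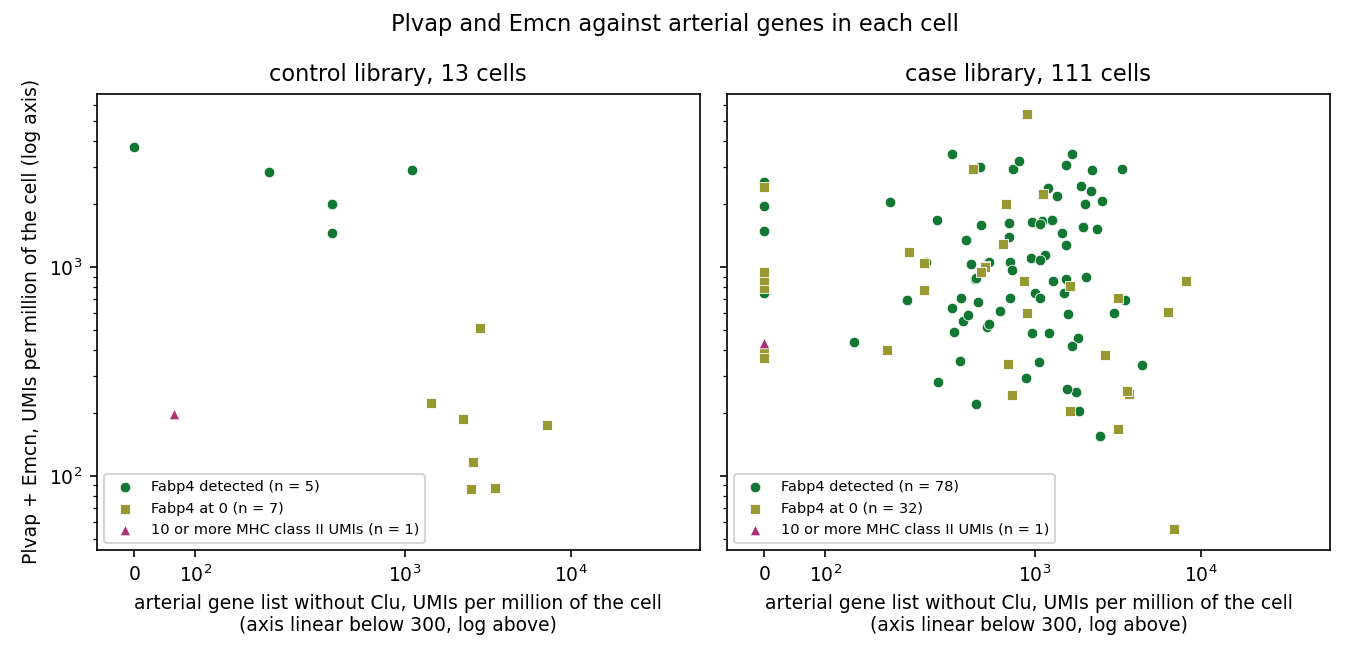
Each point is 1 cell of the control (left, 13 cells) or case library (right, 111 cells), with UMIs of the arterial gene list without Clu per 1000000 UMIs of that cell on the x axis (linear below 300, log above) and UMIs of Plvap and Emcn per 1000000 on the y axis (log). The 5 control cells with Fabp4 lie apart from the other 8, with more Plvap and Emcn, while in the case library the 78 cells with Fabp4 and the 32 without it overlap.

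Over the 111 case cells Plvap ran from 0 through a median of 2 to 19 UMIs per cell, Emcn from 0 through 1 to 7, Fabp4 from 0 through 3 to 71 and Apoe from 0 through 9 to 53. The spread was wide, and most case cells were Fabp4-positive. Fabp4 was detected in 78 of 111 case cells (70.3%, 60.9 to 78.6) and in 5 of 13 control cells (38.5%, 13.9 to 68.4), 2 intervals that overlapped. As a share of all kept barcodes, cells with Plvap or Emcn and Fabp4 took 0.223% (0.0724 to 0.519) in the control and 1.58% (1.25 to 1.96) in the case library. Among Plvap/Emcn-negative ECs, Fabp4 was found in 1 of 42 control and 10 of 106 case cells, in the smooth muscle gate in 6 of 1054 and 9 of 2414, and in the macrophage gate in 3 of 47 (6.38%) and 15 of 117 (12.8%). The case cells without Fabp4 were shallower than those with it, at a median of 3170 against 4462.5 UMIs with the MHC class II barcode set aside, and the part of depth in this split was not tested. The split by Fabp4 was chosen after its values had been seen.

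Without Clu, the arterial genes summed to 346 CPM (95% Poisson interval 173 to 620, 11 UMIs) in Fabp4-positive and 3026 CPM (2586 to 3520, 168 UMIs) in Fabp4-negative control cells, with the MHC class II barcode set aside. In case cells they summed to 1147 CPM (1041 to 1260) and 2290 CPM (2028 to 2575), and 125 of the 278 UMIs of the latter came from 1 cell. Clu stood at 1826 and 13671 CPM in the same kinds of control cells and at 4643 and 7363 CPM in case cells. In the case group the Clu value of cells without Fabp4 rested on that same cell, which held 501 of its 894 UMIs, and without it Clu stood at 3800 CPM, below the cells with Fabp4. The 15 arterial genes stood at 1479 CPM without it. Part of the list is not particular to ECs, since the 15 genes summed to 3422 and 2716 CPM in the smooth muscle gate, where Eln alone was at 2205 and 1613 CPM. The list of capillary and lipid uptake genes, to which Fabp4 belongs, amounted to 3589 and 360 CPM in control and 2841 and 675 CPM in case cells. In the cells with Fabp4, that gene held 90 of the list's 114 control UMIs and 649 of its 1063 case UMIs. The split by Fabp4 therefore set part of this difference. Besides Fabp4, the list rested on Aqp1, a water channel, at 244 CPM in control and 605 CPM in case cells, and on Fabp5, another fatty acid chaperone, at 1230 and 157 CPM, with 109 of its 126 control UMIs in the MHC class II barcode. Other capillary genes were scarce, apart from Rgcc in case cells. Gpihbp1, the anchor of lipoprotein lipase on capillaries, was found in 0 control and 2 case cells, Lpl in 0 and 1, and Rgcc in 1 and 30. Ackr1, Car4 and Cd36 were not analysed here.

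Within each library, the cells with Plvap or Emcn were then set against the Plvap/Emcn-negative ECs, a comparison in which both sides share the library and its pooled arteries. Which animal each cell came from is not known. Of 1452 genes whose mean over the 4 groups reached 100 CPM, 114 (7.85%) were at least 2-fold higher in cells with Plvap or Emcn in both libraries and 97 (6.68%) at least 2-fold lower. The median log2 ratio over all these genes was 0.15 in control and 0.15 in case cells. Without the MHC class II barcodes, 118 of 1463 genes (8.07%) were higher and 82 (5.6%) lower. The largest ratios by rank belonged to Cd74, RT1-Da, RT1-Ba, RT1-Db1 and Slpi, with Bcl2a1 also among the 10 highest, whose control UMIs came from a single barcode each time and whose case UMIs came from a single barcode but for 4 UMIs of Cd74.

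Fabp4 and Apoe led the genes that many cells shared. Fabp4 was at 878 CPM against 25.5 CPM in control cells (log2 ratio 5.11, 95% counting interval 4.12 to 6.28) and at 1292 against 111 CPM in case cells (3.54, 3.17 to 3.93). Apoe, the lipid carrier apolipoprotein E, was at 1161 against 113 CPM in control (3.36, 2.83 to 3.91) and at 2404 against 168 CPM in case cells (3.84, 3.54 to 4.15), and it was found in 8 of 13 and 94 of 111 cells. Both genes were high in the same control cells, since the 5 Fabp4-positive ones held 112 of the 119 Apoe UMIs. A single control cell held 63 of the 119 Apoe and 44 of the 90 Fabp4 UMIs, and without it Apoe was at 612 CPM and Fabp4 at 503 CPM. Apoe is also abundant in macrophages, and it was at 5202 and 12582 CPM in the macrophage gate. The part of macrophage RNA in the Apoe level was not tested.

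With the MHC class II barcodes left out, Slc7a11 ranked next. With all cells Slc7a11, the cystine transporter, was at 166 CPM against 0 UMIs in control cells, a log2 ratio of at least 4.29 at the limit of 3 UMIs, and at 573 against 56.5 CPM in case cells (3.34, 2.82 to 3.91). The genes that followed in rank without the MHC class II barcodes were Tec, a tyrosine kinase, Akr1b10, an aldo-keto reductase, Rsad2, an antiviral enzyme, LOC500712, Olr1, the receptor of oxidised low-density lipoprotein, Depp1 and Ccl7, a chemokine, all with log2 ratios of at least 2.48 in both libraries when a count of 0 was set to 3 UMIs. Those 7 were named after the values had been seen. For Ccl7, 10 of the 11 control UMIs came from 1 cell, and without it Ccl7 was at 10.6 CPM against 22.7 CPM in Plvap/Emcn-negative ECs. Tec was found in 78 of 110 case cells and in 19 of 106 Plvap/Emcn-negative case ECs. Cxcr4, the receptor of the chemokine Cxcl12 and a gene of sprouting tip cells, was among the 10 highest genes only with the MHC class II barcodes. It was at 127 CPM against 0 UMIs in control cells, with 10 of its 13 UMIs in the MHC class II barcode, and at 275 against 24.0 CPM in case cells (3.52, 2.72 to 4.43). Cxcr4 reached the floor through the cells where it was high, and it was at 644 and 1736 CPM in the macrophage gate.

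Among the 10 lowest genes were 2 of the arterial list, Gja5 and Cytl1. Gja5 was at 48.8 against 439 CPM in control (-3.17, -4.81 to -1.92) and at 27.9 against 241 CPM in case cells (-3.11, -4.02 to -2.32). Cytl1, a secreted protein of arterial ECs, was at 361 against 1733 CPM (-2.26, -2.78 to -1.78) and at 237 against 1260 CPM (-2.41, -2.70 to -2.13). Dkk2, a secreted regulator of Wnt signals, was at 9.76 against 283 CPM in control and at 47.8 against 389 CPM in case cells. The rest of the 10 lowest were Efemp1 and Col8a1, both of the extracellular matrix, Igfbp6, Gask1b, Cgnl1, a junction protein, the scavenger receptor Msr1 and RNase_MRP, all at least 4-fold lower in both libraries. These ranks include the MHC class II barcodes. Without them Slc4a4, Vault and Tspan8 took the places of Gask1b, Cgnl1 and Msr1.

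**Figure D3:**
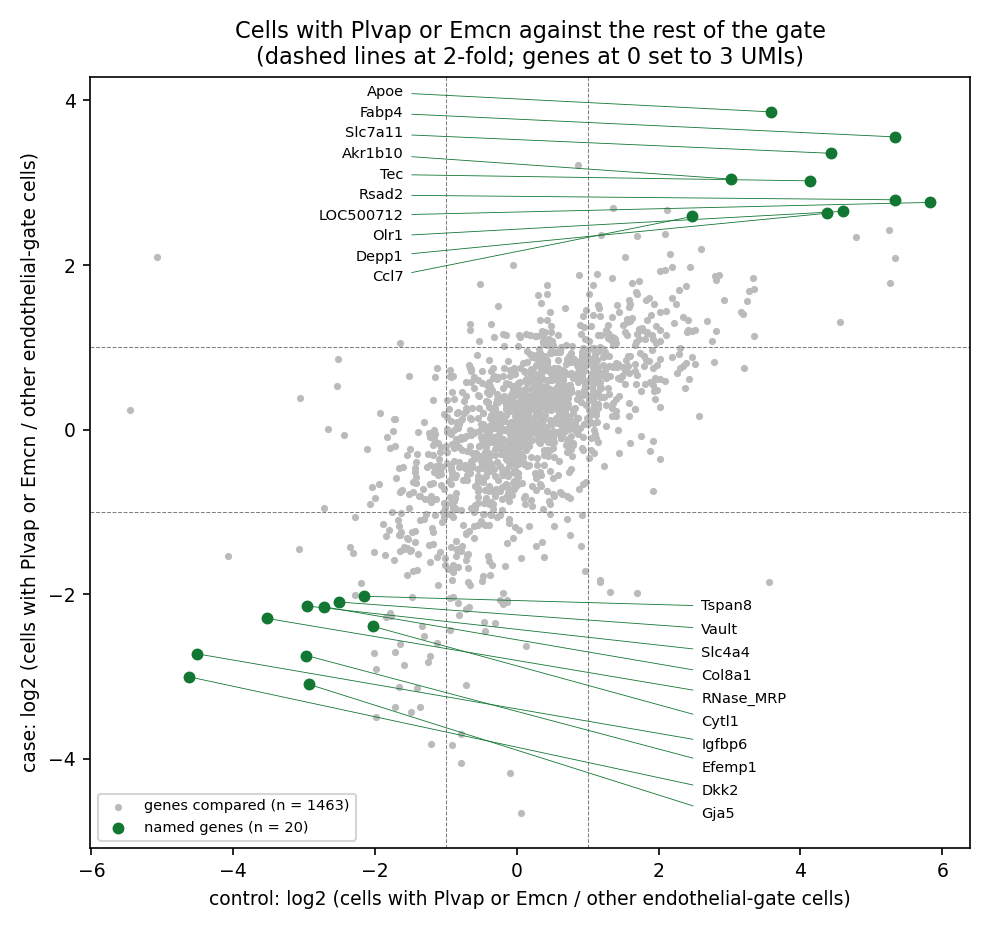
Log2 ratio of CPM in ECs with Plvap or Emcn over the other endothelial-gate cells, in the control (x axis) and in the case library (y axis), for 1463 genes with the 2 MHC class II barcodes left out. Each point is a gene, named points are the 10 highest and 10 lowest by the smaller of the 2 ratios, dashed lines mark 2-fold and a count of 0 was set to 3 UMIs, and Fabp4 and Apoe lie at the upper right while Gja5 and Dkk2 lie at the lower left.

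Gene lists were read against the 7.85% and 6.68% of all genes. Of 9 arterial genes above the floor, 0 were higher and 5 lower in both libraries (median log2 ratio -1.06 in control and -1.44 in case cells), and 4 remained lower without the MHC class II barcodes, namely Cytl1, Eln, Gja5 and Hey2. Of 5 genes of caveolae and transport across the cell, 0 were higher and 4 lower, namely Cav2, Cavin1 and Cavin2, which build the coat of caveolae, and Ehd4 (median -1.71 and -1.45). Cav1 itself, at 751 against 2065 CPM in control and 886 against 1604 CPM in case cells, passed 2-fold in the control library alone.

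Adm and some interferon genes were higher. Adm, the vasodilator peptide adrenomedullin and a gene of the tip cell list, was at 781 against 127 CPM in control (2.62, 2.07 to 3.18) and at 1128 against 310 CPM in case cells (1.86, 1.62 to 2.11). Besides Adm, the 1 other tip cell gene above the floor was Cxcr4, which was below it without the MHC class II barcodes. Of 4 interferon-stimulated genes above the floor, 2 were higher, Rsad2 and Gbp2, a guanylate-binding protein, and 0 lower. Without the MHC class II barcodes, the 20 control UMIs of Rsad2 came from 3 cells. The 12 interferon-stimulated genes summed to 1103 against 1150 CPM in control cells and to 1761 against 801 CPM in case cells, so the sum was higher in the case library alone. Typical tip cell genes were scarce in control cells, with 1 UMI of Angpt2 and 0 of Apln and Esm1. Of the 8 tip cell genes, 5 had UMIs in control and 8 in case cells, and the list summed to 947 and 1684 CPM.

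Apart from the MHC class II list, which rested on the MHC class II barcodes, the remaining lists held few members at least 2-fold higher. Of 18 further endothelial genes above the floor, Clec14a was higher and Icam2, Ptprb and Ramp2 were lower, with a median of -0.07 and -0.23 over the list. Of 15 immediate early and KLF genes, Klf6 was higher and Dusp1 and Fos were lower, and Fos was no longer so without the MHC class II barcodes. Of 5 genes linked with the endothelial-to-mesenchymal transition, 0 were higher and 3 lower, Fn1 (fibronectin) at 1181 against 4551 CPM in control and 360 against 3772 CPM in case cells, S100a4 and Bgn, of which Fn1 and S100a4 stayed lower without the MHC class II barcodes. Of the 8 cell cycle genes, Pcna, which also serves DNA repair, held all 65 control UMIs, while Mki67 was found in 0 control cells and 1 case cell and Top2a in 0 and 0.

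**Figure D4:**
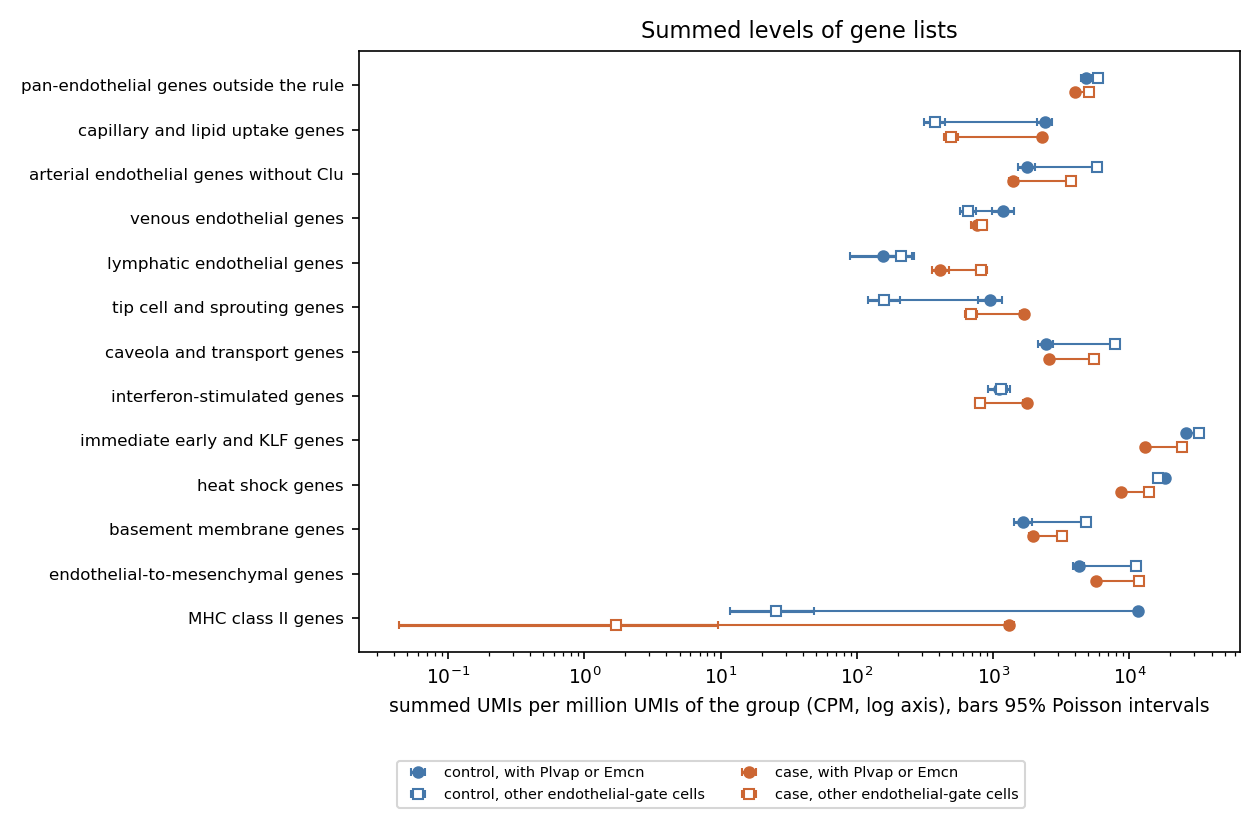
Summed level of 13 gene lists in CPM (log axis) in ECs with Plvap or Emcn (filled circles) and in the other endothelial-gate cells (open squares), control in blue and case in orange, with 95% Poisson intervals. Clu is left out of the arterial list. Arterial and caveola lists are lower and capillary and tip cell lists higher in cells with Plvap or Emcn in both libraries, while the MHC class II points come from 1 barcode per library.

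Case cells were then compared with control cells, the question of what these ECs express 28 days after injury. Of 1442 genes whose mean reached 100 CPM, 165 (11.4%) were at least 2-fold higher and 172 (11.9%) at least 2-fold lower in case cells, with a median log2 ratio of 0.02. TMM scaling moved this median to 0.26 and the counts to 264 higher and 120 lower, and thinning of each cell to 1000 UMIs moved them to -0.34 and to 218 higher and 420 lower. Without the MHC class II barcodes, 153 of 1468 genes (10.4%) were higher and 181 (12.3%) lower.

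Among the 12 genes named for being higher in case cells, Hmox1 was the most abundant. It stood at 2518 CPM in control (258 UMIs in 12 of 13 cells) and 7702 CPM in case cells (3870 UMIs in 99 of 111), a log2 ratio of 1.61 (1.43 to 1.80). The same direction held in Plvap/Emcn-negative ECs, from 527 to 2297 CPM (2.12), but the ratio was 0.26 in the smooth muscle, 0.05 in the fibroblast and 0.08 in the macrophage gate. In Fabp4-positive cells alone Hmox1 stood at 4219 and 8286 CPM (0.97, 0.72 to 1.23). With at least 2 UMIs of Plvap and Emcn required, the log2 ratio was 0.96.

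Among the other named genes were a chemokine, an interferon-inducible gene and an inhibitor of coagulation proteases. Ccl2, the chemokine that attracts monocytes, was at 176 CPM in control cells, all 18 UMIs in 1 cell, and at 1431 CPM in case cells, in 41 of 111 (3.03, 2.36 to 3.79). Ifi27l2b, an interferon-inducible gene, was at 117 and 802 CPM (2.78, 1.96 to 3.74), and Lgals3, galectin 3, at 29.3 and 299 CPM (3.35, 1.78 to 5.64). Tfpi2, an inhibitor of proteases of coagulation, and Cyp1b1, a cytochrome P450 enzyme, each came from 1 control cell, at 39.0 and 87.8 CPM, and stood at 318 and 446 CPM in case cells. The rest were Akr1b10, Susd6, Adarb1, AABR07043748.1, LOC100362366 and LOC100362149, with log2 ratios from 1.59 to 2.74. In Fabp4-positive cells alone the log2 ratios were smaller, at 1.42 (0.75 to 2.19) for Ccl2, 1.38 (0.56 to 2.35) for Ifi27l2b, 1.49 (0.10 to 3.38) for Tfpi2 and 1.14 (-0.01 to 2.61) for Akr1b10. Lgals3 was at 2.51 (0.63 to 5.57) with 2 control UMIs, and Cyp1b1 had 0 control UMIs in them. LOC100362366 and LOC100362149 had log2 ratios of at least 1.44 in the Plvap/Emcn-negative ECs and in the smooth muscle, fibroblast and macrophage gates too. In Plvap/Emcn-negative ECs and the smooth muscle gate, the log2 ratios were 1.59 and 1.16 for Ccl2 and 1.91 and 1.85 for Ifi27l2b. They were 3.18 and 1.19 for Tfpi2 and 2.34 and 2.36 for Cyp1b1, against 0.48 and -0.86 for Lgals3.

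Of the 12 genes named for being lower in case cells, 6 rested on the control MHC class II barcode, namely Il12b, Rgs1, Pkib, RT1-Db1, RT1-Da and Slpi. The others were Sfrp1, a secreted Wnt antagonist (361 and 7.96 CPM), Cd24, LOC691995, Sbspon, Ccdc80 (556 and 59.7 CPM, -3.22, -3.91 to -2.56) and Id2, an inhibitor of DNA-binding factors (732 and 79.6 CPM, -3.20, -3.79 to -2.63). With at least 2 UMIs of Plvap and Emcn required, the log2 ratio was -0.82 for Ccdc80, -0.50 for LOC691995 and -1.23 for Sbspon, so that the first 2 were no longer past 2-fold. Cd24 stood at -7.57 and Id2 at -3.07 in that setting. However, 27 of the 32 control UMIs of Cd24 came from 1 cell. For Id2, the setting kept the MHC class II barcode with 23 UMIs and 1 other cell with 13. All but a few of the control UMIs of these 6 genes came from cells without Fabp4. Sfrp1, Cd24, LOC691995 and Sbspon had 0 UMIs in the 5 Fabp4-positive control cells, Ccdc80 had 1 and Id2 had 2. Of the 75 control UMIs of Id2, 23 came from the MHC class II barcode.

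**Figure D5:**
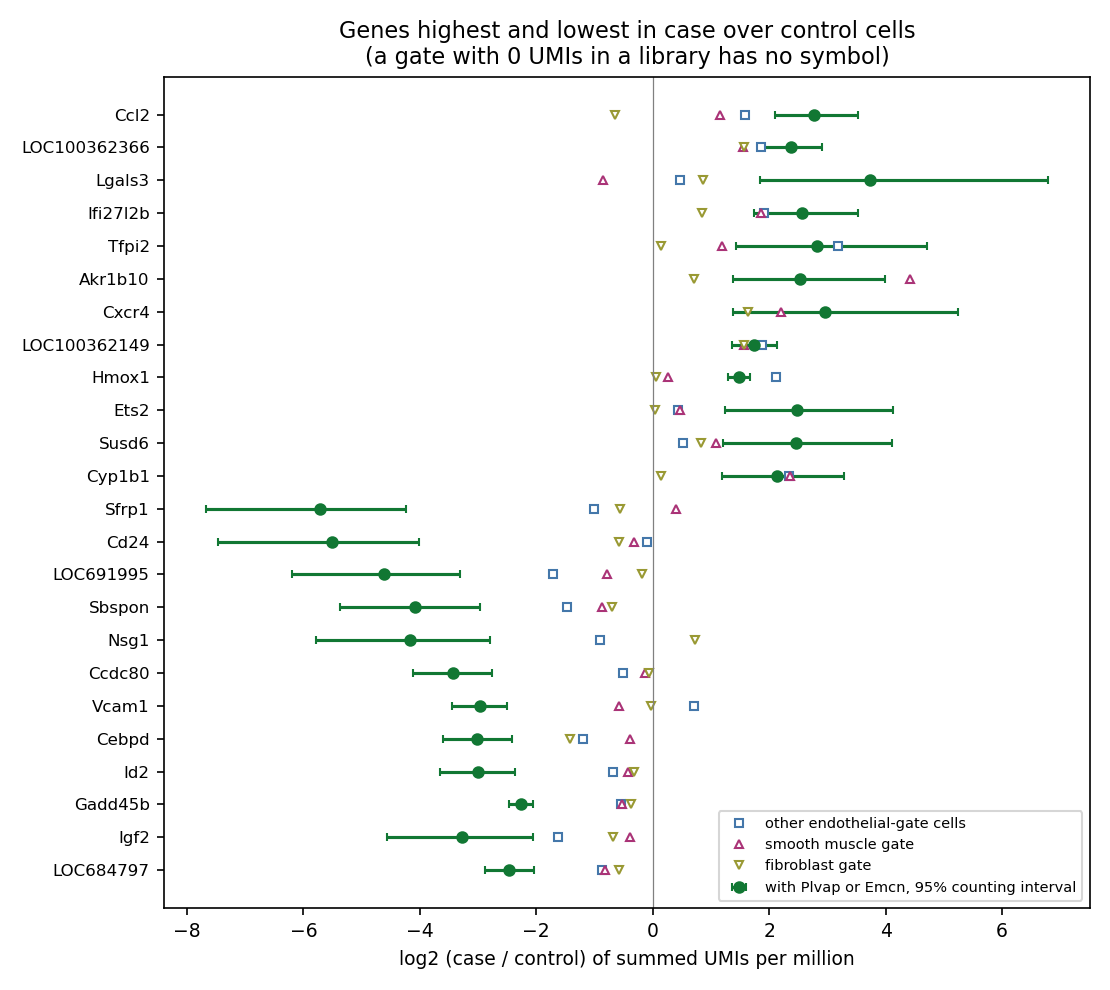
Log2 ratio of CPM in case over control ECs with Plvap or Emcn (filled circles with 95% counting intervals) for the 12 highest and the 12 lowest genes once the 2 MHC class II barcodes were left out. Open symbols give the same ratio in the other endothelial-gate cells, the smooth muscle gate and the fibroblast gate, and the symbols of LOC100362366 and LOC100362149 lie close together while those of Hmox1 are high in both endothelial groups.

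Of 22 lists with genes above the floor in both comparisons, the medians of 9 differed in sign between all cells, where 11.4% of genes were higher and 11.9% lower, and the Fabp4-positive cells alone, where 13% were higher and 20.6% lower. Of 6 arterial genes, 0 were higher and 1 lower in all cells (median -0.61), but 3 of 3 were higher in Fabp4-positive cells (median 1.61). The 5 Fabp4-positive control cells held 11 UMIs of the 15 arterial genes. Genes other than Clu may thus have reached the floor through the case cells, so the 3 of 3 is a description. Of 7 genes of BMP and TGF-beta signalling, 0 were higher and 3 lower (median -0.29), against 2 higher and 0 lower of 4 (median 1.04). The lists of caveola, vasomotor, capillary and Notch genes and of the 7 genes of the rule changed sign as well, with at most 2 genes past 2-fold in either direction in each. Of 15 immediate early and KLF genes above the floor, 0 were at least 2-fold higher and 6 lower in case cells (median log2 ratio -0.91), but in Fabp4-positive cells 4 were higher and 1 lower of 14 (median 0.55). Without the MHC class II barcodes, 9 of the 15 were lower and 0 higher (median -1.09). Of 6 heat shock genes, 0 were higher and 3 lower (median -1.17), but 1 was higher and 0 lower in Fabp4-positive cells (median 0.65), counts too few to set against those shares. Other lists kept the sign of their median. Of 6 coagulation and fibrinolysis genes, 0 were higher and 4 lower (median -1.17), against 1 higher and 2 lower in Fabp4-positive cells (median -0.65). Of 6 leukocyte adhesion genes, 0 were higher and 4 lower (median -1.34), namely F11r, Icam1, Icam2 and Vcam1, against 1 higher and 2 lower of 3 in Fabp4-positive cells (median -2.20), and 69 of the 91 control UMIs of Vcam1 came from 1 cell. Of 5 genes linked with the endothelial-to-mesenchymal transition, 2 were higher and 1 lower (median 0.60), against 4 higher of 4 in Fabp4-positive cells (median 1.92), where all 18 control UMIs of Vim and 24 of the 31 of Ccn2 came from 1 cell each. Without the MHC class II barcodes, 2 of these 5 genes were higher and 2 lower (median 0.38). The level of the immediate early and KLF list was 10894 CPM in Fabp4-positive and 40886 CPM in Fabp4-negative control cells, against 12696 and 14215 CPM in case cells. Hspa1b, an inducible heat shock protein of 70 kDa, showed the same split at 220 and 13040 CPM in control and 2708 and 3245 CPM in case cells.

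Between Fabp4-positive cells of the case and control groups, 193 of 1484 genes were at least 2-fold higher (13%) and 306 lower (20.6%), with a median of -0.27 and 31760 control UMIs from 5 cells. Thbd, the anticoagulant receptor thrombomodulin, was the most abundant coagulation gene in these control cells and was lower in case cells, at 5164 and 1048 CPM (-2.30, -2.57 to -2.03). Icam1, a receptor for leukocytes, was at 3432 and 748 CPM (-2.20, -2.52 to -1.86) and Cd93, a lectin of endothelial adhesion, at 2236 and 329 CPM (-2.77, -3.20 to -2.32). Vim, vimentin, was at 567 and 2491 CPM (2.14, 1.47 to 2.90), with all 18 control UMIs in 1 cell. Apoe was at 3526 and 2708 CPM (-0.38, -0.66 to -0.09), and the control level was 2358 CPM without the cell with most Apoe UMIs. Fabp4, which chose these cells, was at 2834 and 1735 CPM.

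The 124 cells were clustered by their expression and fell into 4 clusters of 48, 38, 27 and 11 cells, described by their leading genes and not tested. The cluster of 48, with 1 control and 47 case cells, was led by Rtp3, Aebp1, Ubd and Ifit3 and held Plvap at 1044 CPM and Fabp4 at 1531 CPM. The cluster of 38, with 6 control and 32 case cells, was led by AABR07059663.1, Depp1, Pdgfb and Fabp5 and included both MHC class II barcodes (Cd74 at 3117 CPM). Of its 160 Fabp5 UMIs, 109 came from the control MHC class II barcode, and Fabp5 was at 801 CPM with it and 276 CPM without it. The cluster of 11, with 6 control and 5 case cells, was led by LOC691995, Sfrp1, Cgnl1 and Fbln1 and held no Fabp4 and Plvap at 146 CPM. The 15 arterial genes without Clu summed to 4230 CPM in it, with Eln at 1981 CPM, against 1309, 791 and 935 CPM in the clusters of 48, 38 and 27, and none of them was among its 10 leading genes. Clu stood at 17978 CPM in the cluster of 11 and at 9325 CPM in the cluster of 27.

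The cluster of 27 came from the case library alone. It was led by Lyve1, Nrg1, Igfbp5 and LOC108348061, with Prox1, the factor that sets lymphatic identity, and Vwf among its 10 leading genes. Prox1 amounted to 315 CPM, Vwf to 2725 CPM and Hmox1 to 13803 CPM, and Fabp4 was found in 85.2% of its cells. Ccl21, a chemokine of lymphatic vessels, stood at 854 CPM, and all 95 Ccl21 UMIs of the case cells came from 2 cells, both without Fabp4. Of the cluster's 165 UMIs of 8 lymphatic genes, 68 came from 1 cell. Lyve1 was found in 9 of 111 case cells, with 7 of its 19 UMIs in 1 cell. Prox1 was found in 18 of 111 case cells and in 0 of 13 control cells, which allows a share of up to 24.7% of control cells with a Prox1 UMI.

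Within the case group, cells with Fabp4 were set against cells without it. The genes below were among the most different, and the number of genes that differed is not given here. Cyp1b1 was at 577 against 62.3 CPM (log2 ratio 3.21, 2.21 to 4.44) and Ifi27l2b at 986 against 265 CPM (1.90, 1.39 to 2.45). Cxcl10, an interferon-induced chemokine, was at 780 against 187 CPM (2.06, 1.46 to 2.73), but 169 of its 292 UMIs came from 1 cell, and without that cell it was at 333 CPM (0.83, 0.19 to 1.53). Aebp1, Lrg1, Ccl7 and Olr1 were also higher in the group with Fabp4. Aebp1 was found in 13 cells of that group, with 29 of its 74 UMIs in 1 cell (2.01, 0.56 to 3.95 without it). Ccl7 was found in 21, with 36 of its 173 UMIs in 1 cell (1.58, 0.83 to 2.43 without it). Msr1, with 0 UMIs against 27, and Cgnl1, with 2 UMIs against 41, were higher in cells without Fabp4, with 14 of the 27 and 32 of the 41 UMIs in 1 cell each, as were Ccl21 in the 2 cells above and Col8a1 (17 against 48 UMIs, log2 ratio -3.04, -3.93 to -2.22), along with the MHC class II genes and Slpi of the doubtful barcode. Of the 78 case cells with Fabp4, 21 had Cyp1b1, 63 had Ifi27l2b and 41 had Lrg1. The share of cells behind a difference thus varied by gene.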

How the data were processed

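The authors deposited raw UMI counts per gene and barcode, 32623 genes and 8977 barcodes of 2 libraries, made with Cell Ranger 3.1.0. The submitters' processing notes name Rnor_6.0 and Seurat. Whether libraries were down-sampled when they were joined is not given in the sources used here. From these counts, UMIs were summed over the cells of each gate and library, divided by the sum over all genes and given per 1000000 (CPM). Ratios carry exact conditional 95% intervals of 2 Poisson counts, sums exact Poisson intervals and shares Clopper-Pearson intervals. Such intervals take UMIs or cells as independent and cover counting error only. Genes were compared above a mean of 100 CPM, and a fold of 2 was counted. Medians set a count of 0 to 3 UMIs.

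The cells, the 31 gene lists and the rule for named genes were chosen with earlier results of these data known. Named genes were the 12 largest rises and 12 largest falls of case over control by the interval bound nearest 0, and the 10 highest and 10 lowest against Plvap/Emcn-negative ECs by the smaller of the 2 ratios, without genes of the rule, mitochondrial genes and ribosomal protein genes, and the most abundant genes of each list. The smooth muscle gate (at least 1% smooth muscle UMIs), the fibroblast gate (at least 1.5%) and the macrophage gate (at least 4 macrophage UMIs from 2 or more genes) served as background. Each also required under 2 UMIs of the 7 endothelial genes of the rule. The smooth muscle gate stayed under the fibroblast limit, the fibroblast gate under the smooth muscle limit and the macrophage gate under both. Cells were clustered with scanpy 1.11.5 and leidenalg 0.10.2 (2000 variable genes, 20 principal components, 15 neighbours, resolution 0.5, seed 1). Python 3.11.15, numpy 2.4.6, scipy 1.17.1, pandas 2.3.3, matplotlib 3.10.9, R 4.3.3 and, for TMM factors, edgeR 4.0.16 were used, and the steps were tested on simulated data. Besides 12 other settings listed at the start, 6 were chosen after seeing the data: the arterial list without Clu, levels without the cell holding most UMIs of the gene or list, ratios within the case group without the cell holding most UMIs of the gene, without barcodes of 10 or more MHC class II UMIs, only cells with Fabp4, and without the highest Scrublet scores at 0.8% per 1000 cells.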

Additional observations from a re-analysis of the deposited data

Results flagged for a closer look

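Id2 and Vcam1, an adhesion receptor for leukocytes, went in opposite directions in the 2 libraries when cells with Plvap or Emcn were set against Plvap/Emcn-negative ECs. The log2 ratio of Id2 was 1.21 in the control and -1.32 in the case library, and that of Vcam1 was 1.46 and -2.00. With 1 library per group the difference between these ratios was not tested. Of the 91 Vcam1 UMIs of the 13 control cells, 69 came from 1 cell, and of the 75 Id2 UMIs, 27 came from that cell and 23 from the MHC class II barcode.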

How the results depend on the processing

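No paired analysis was possible because each group had 1 library, and no replicate could be left out. The share of kept barcodes stayed within its interval under each setting tried for it, and without the highest Scrublet scores 0 control and 2 case cells were lost. With at least 2 UMIs of Plvap and Emcn required, that share was 0.357% in the control and 1.90% in the case library, against 0.579% and 2.24%. The share of case ECs with Plvap or Emcn, 33.6% after thinning, was 51.2% without thinning and 43.3% with at least 2 UMIs and no thinning. Genes higher in case than in control cells numbered 165, but 264 with TMM scaling, 324 with a floor of 50 CPM and 912 with no floor. Genes lower numbered 172, but 420 after thinning, 344 with a floor of 50 CPM, 1830 with no floor and 306 in Fabp4-positive cells alone. The median log2 ratio of 0.02 became -0.34 after thinning, 0.26 with TMM scaling, -0.29 with no floor and -0.27 in Fabp4-positive cells. Against Plvap/Emcn-negative ECs, the 114 higher genes became 180 with a floor of 50 CPM, 391 with no floor and 187 in Fabp4-positive cells, and the 97 lower genes became 149 with at least 2 UMIs of Plvap and Emcn, 175 with a floor of 50 CPM, 475 with no floor and 154 in Fabp4-positive cells. A lower floor adds genes by its construction, and the cause of the other shifts was not tested. Of the named ratios, 511 values stayed within their interval, 63 moved and 1 reversed, that of Id2 in case over control cells, which was 0.25 in Fabp4-positive cells alone. The 13 control cells and their 102463 UMIs limit every case over control ratio.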

Other observations

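Against all other kept barcodes, the 10 genes highest in cells with Plvap or Emcn in both libraries, apart from the genes of the rule, were Slpi, from the 2 MHC class II barcodes, AABR07005821.1, Fabp4, Apold1, AABR07001389.1, Adgrf5, Depp1, Egfl7, Adgrl4 and Clec14a. Fabp4 stood at 878 CPM against 1.73 CPM in the other control barcodes and at 1292 against 8.61 CPM in the other case barcodes. Apold1, an endothelial gene of the early response, stood at 332 against 3.38 CPM and at 410 against 6.54 CPM.

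Leukocyte selectins were present in part of the cells. Selp (P-selectin) was found in 6 of 13 control and 32 of 111 case cells and Sele (E-selectin) in 2 and 22. Sele was found in 0 of 42 control and 3 of 106 case Plvap/Emcn-negative ECs. Of the 8 leukocyte adhesion genes, 7 had UMIs in those control and 8 in those case ECs, so Selp was present there too. Nr2f2, a factor of venous identity, was found in 3 of 13 control and 25 of 111 case cells and in 2 of 42 and 3 of 106 Plvap/Emcn-negative ECs. The 8 venous genes found in the files summed to 1181 CPM in control and 766 CPM in case cells. Of the 121 control UMIs, 70 came from 1 cell, among them its 69 of Vcam1, and without that cell the control sum was 543 CPM. In Plvap/Emcn-negative ECs the same 8 genes summed to 654 CPM in control and 823 CPM in case cells.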
